A study of Mus musculus with 2 samples.

Results

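The stretch of mouse chromosome 1 described here runs from Wnt6 through Ihh and Epha4 to Pax3 and covers the chromatin domain of Epha4 and its surroundings. No contact map was read, so the borders of that domain are not located by these data. It was bounded by the first and the last of these 4 genes plus 100 kb on each side, chr1:74671892-78297134 on assembly mm10 or 3.63 Mb. Its members were the 129 CTCF peaks with a summit inside it, of 68590 on chromosomes 1 to 19 and X in the deposited optimal list and 4508 on chromosome 1. Position alone chose them, with no measured value.

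CTCF, a DNA-binding protein with a row of zinc fingers, recognises a long motif that has a direction and, together with cohesin, holds the borders of chromatin domains and the ends of loops, whose motifs most often face each other. Epha4 encodes a receptor tyrosine kinase for ephrins that guides axons in the brain and spinal cord. In the limb it is driven by enhancers in the gene desert beside it, and rearrangements that remove or invert the borders of its domain let these enhancers act on Pax3, Wnt6 or Ihh, which is known from mouse and human digit malformations. Wnt6 encodes a secreted Wnt ligand, Ihh the hedgehog ligand of growing cartilage, and Pax3 a paired homeodomain factor of the dorsal neural tube, neural crest and muscle precursors.

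CTCF chromatin immunoprecipitation followed by sequencing was done on the midbrain of newborn (postnatal day 0) B6NCrl mice, in 1 group of 2 replicates. The labels give 1 biosample and 1 donor for both, so differences between replicates may be purely technical, and sex was not collected. With no second condition, the comparisons are between intervals of the stretch, with the rest of the genome, and between replicates. Peaks alone cannot check the tissue label, and in bulk tissue binding in fewer cells cannot be told apart from weaker binding per cell.

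Signal below is the value the authors deposited for each peak, with no stated unit. The optimal list carries the signal of the call on both replicates together, and each replicate's own list carries its own, on a scale not shown to match. Read depth is unknown, so a place without a peak is one where none was listed. Over all peaks the signal ranged from 6.814 to 690.9 with a median of 76.47.

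A 20 bp CTCF weight matrix learned from the strongest peaks of even-numbered chromosomes was matched within 50 bp of each summit, at a per-position p of 1e-05. A plus-strand site reads toward higher coordinates, toward Pax3, and a minus-strand site toward lower ones, toward Wnt6. The 13 sites below belong to peaks at Wnt6, Ihh and Epha4, past Wnt10a, inside the Epha4 desert and in the groups on both of its sides, since their direction is what the map turns on. They were read from GRCm38.p6, written 5′ to 3′ along the strand named, and capitals mark positions 4 to 16 of the matrix, its conserved core.
Wnt6 exon (chr1:74784660-74784679, plus strand): attCCAGCAGGGGGCGctgt
intergenic, past the end of Wnt10a (chr1:74808298-74808317, minus strand): tcaCCAACAGAGGGCGccat
Ihh intron (chr1:74949002-74949021, plus strand): tgcCCAGTAGGTGTCAccgc
Slc4a3 exon (chr1:75559730-75559749, minus strand): gatCCGCCAGGTGGCAgcct
first intergenic peak past Slc4a3 (chr1:75597825-75597844, minus strand): ctgCCACTAGGGGGCAgcat
lower summit of the double peak (chr1:75652694-75652713, plus strand): tggCCAGCAGAGGTCActct
upper summit of the double peak (chr1:75653737-75653756, plus strand): tggCCACCAGGTGGCGccat
strong peak inside the desert (chr1:75925911-75925930, plus strand): gtgCCGACAGGGGGCGccac
upstream of the Epha4 start (chr1:77516441-77516460, minus strand): tggCCGGCAGGTGGCGcggt
weak peak of the Pax3-side cluster (chr1:77930861-77930880, minus strand): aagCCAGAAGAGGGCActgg
Gm28387 exon (chr1:77943281-77943300, plus strand): tggCCACTAGAGGGCGaact
Gm28387 start (chr1:77972547-77972566, minus strand): aaaCCTCCAGGTGGCGctgt
last strong peak before Pax3 (chr1:77978879-77978898, plus strand): caaCCACTAGATGGCGccaa
The upper summit of the double peak scored highest of the 129 peaks, at 26 bits against a threshold of 12.9 bits. The site upstream of Epha4 scored 18.9 bits and that in the Slc4a3 exon, under the strongest peak of the stretch, 15.9 bits.

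CTCF peaks were dense among the genes at the Wnt6 end, sparse in the desert between Slc4a3 and Epha4, and strong again in a tight group before Pax3. The stretch held 35.6 peaks per Mb, against 23.1 on chromosome 1 and a mean of 27.3 ± 4.99 over the autosomes (SD, n = 19 chromosomes, 21.0 to 40.2). Its peaks had a lower signal, with a median signal of 57.07 and a range of 7.149 to 548.3, against a median of 78.43 on chromosome 1. The 14 peaks among the genome's strongest 10% made up 10.9% of the stretch. Of the 129 peaks, 31 lay within 1 kb of an annotated transcript start (24.0%, against 21.1% of all peaks), 9 in exons, 26 in introns and 63 between genes. The exon, intron and intergenic shares over all peaks were not computed.

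**Figure D1:**
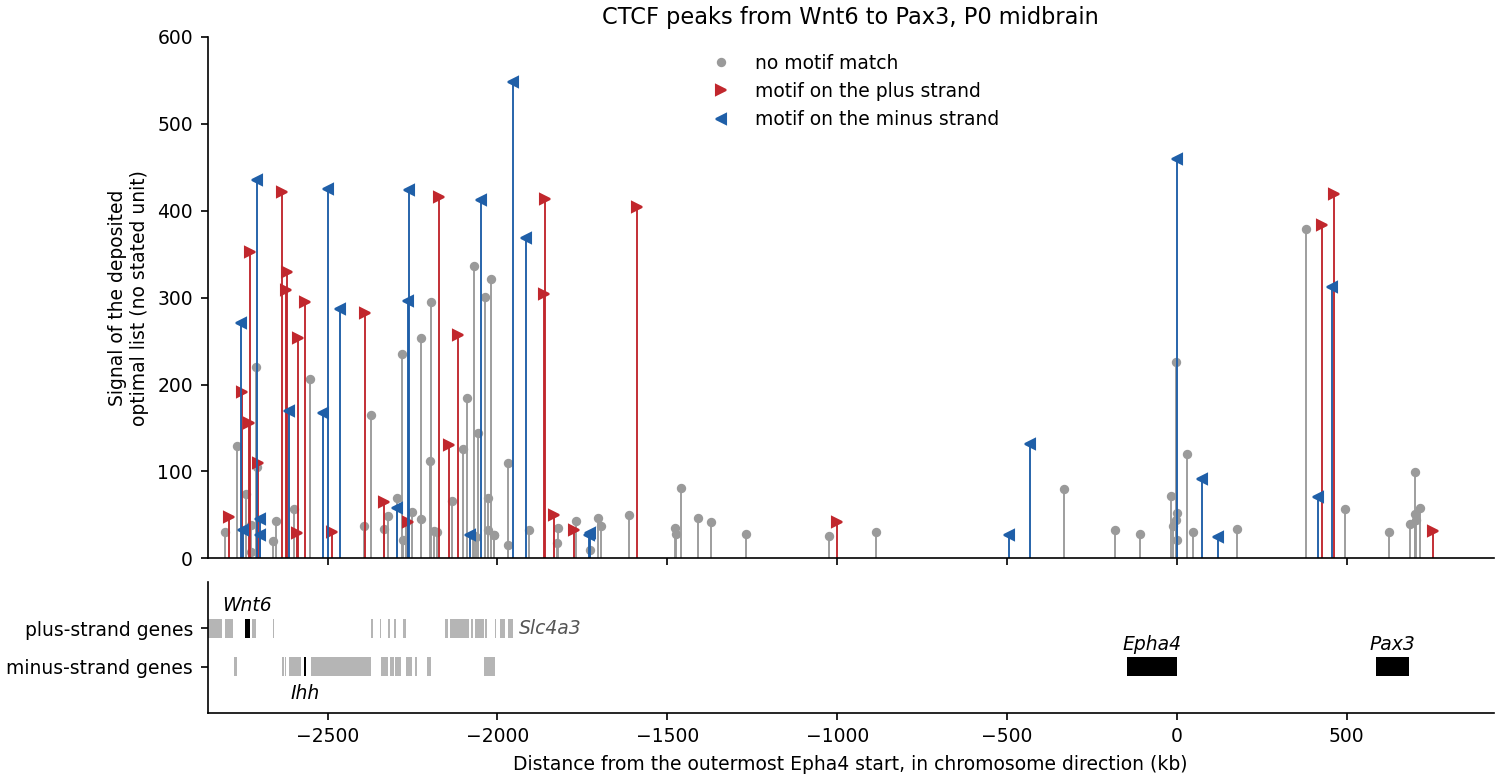
Signal of each of the 129 optimal peaks against its distance in kb from the outermost Epha4 start, in chromosome direction, with arrowheads for the strand of the motif and dots where none matched. The lower panel draws the 38 coding genes with a start in the stretch, the 4 listed ones in black. Peaks crowd the genes left of Slc4a3, and strong peaks stand again at Epha4 and before Pax3.

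Between Wnt6 and Ihh, 160 kb held 18 peaks, or 113 per Mb, with a median signal of 107.8. Between Ihh and Slc4a3, the last coding gene before the desert, 610.5 kb held 47 peaks, or 77 per Mb, with a median of 109.6. The gene-poor 1805 kb from Slc4a3 to Epha4 held 29 peaks, or 16.1 per Mb, with a median of 36.86. Density and median signal were thus lower over that interval as a whole. The drop did not begin where the coding genes end, since peaks of 368.7, 304.2 and 413.7 stood in its first part, up to 102 kb from the nearest Slc4a3 start. The 586.2 kb between Epha4 and Pax3 held 13 peaks, or 22.2 per Mb, but with a median of 91.83. The 100 kb flanks held 6 peaks each, with a median of 88.46 before Wnt6 and 47.55 after Pax3. Gene bodies held 2 peaks in Wnt6, 1 in Ihh, 6 in Epha4 and 1 in Pax3, or 149, 157, 40.6 and 10.4 per Mb.

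**Figure D2:**
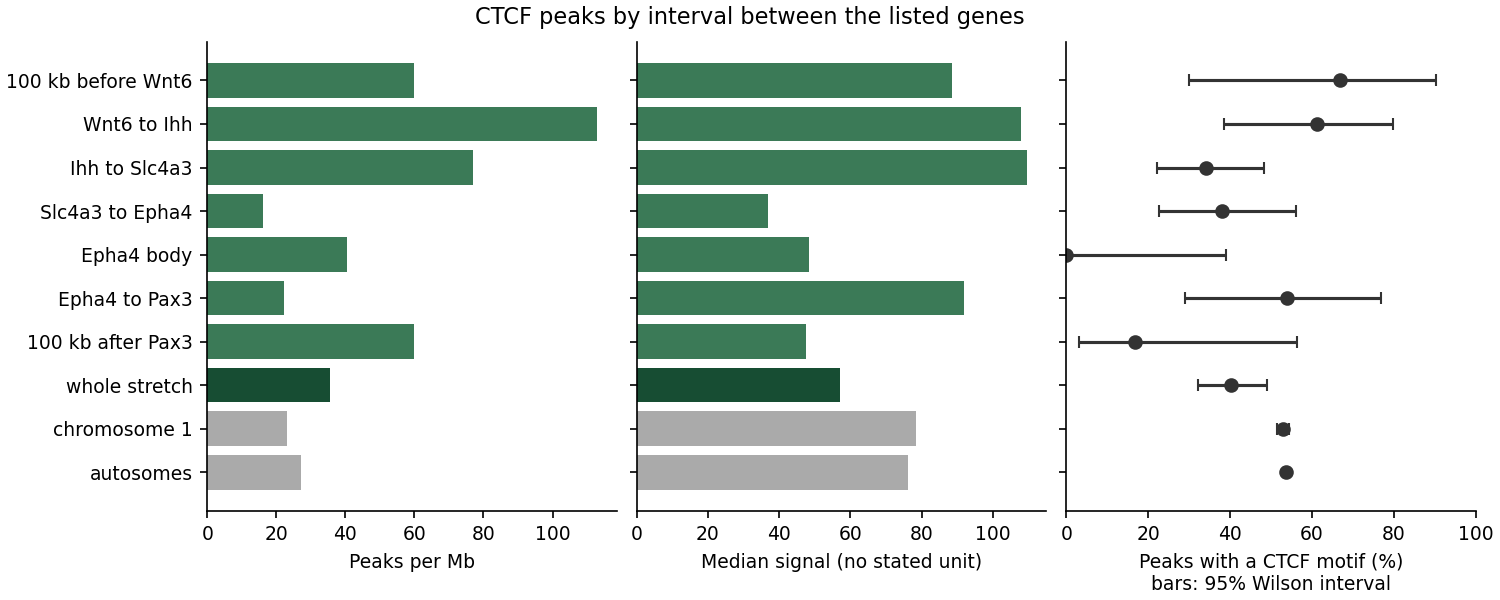
Peaks per Mb, median signal of the optimal list, and share of peaks with a motif (points, with 95% Wilson intervals) for the intervals of the stretch, the whole stretch, chromosome 1 and the autosomes, from top to bottom. The intervals from Wnt6 to Slc4a3 had 113 and 77 peaks per Mb, and that from Slc4a3 to Epha4 had 16.1.

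A motif matched at 52 of the 129 peaks (40.3%, 95% Wilson interval 32.2 to 48.9), against 53.7% of all peaks. Peaks with a motif had a median signal of 180 and those without one 44.2, against 134 and 50.3 over all peaks. A smaller share of the peaks held a motif, although the sequence itself held 46.9 matches per Mb, against 39.4 on chromosome 1. Among the genome's strongest 10%, 13 of 14 peaks held a motif (92.9%, against 87.5% over all peaks), and among its weaker 50%, 19 of 74 did (25.7%, against 38.5%). Were the motif share of each 10% class of signal over all peaks applied to the stretch, 67.3 motif peaks would stand beside the 52 found. Of 31 peaks within 1 kb of a start 8 held a motif, and of 63 between genes 25 did. The motif shares of such peaks over the whole list were not computed. Repeat-masked sequence held 14 of the 52 sites (26.9%, 16.8 to 40.3), against 30.7% over all peaks, and masked sites had a median signal of 44.7, against 291 for the others.

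The motifs were split evenly over the whole stretch, 27 on the plus and 25 on the minus strand (51.9% plus, 38.7 to 64.9, against 49.8% of all motif peaks). Among 51 pairs of neighbouring motif peaks 13 faced each other, 13 faced away and 25 pointed the same way (25.5%, 25.5% and 49.0%, against 23.9%, 23.9% and 52.2% on the autosomes). The longest run on 1 strand was 6 minus-strand peaks over 909.4 kb, from 77021452 in the desert through Epha4 to 77930875 on the way to Pax3.

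At the Slc4a3 side of the desert, 4 strong peaks and 1 weak one lay within 94.04 kb. This group and the one before Pax3 were picked out after their values were seen. The strongest peak of the whole stretch had its summit in an exon of Slc4a3, which encodes an anion exchanger, at chr1:75559708 with a signal of 548.3 and with 280.4 and 269.3 in replicates 1 and 2. The next strong peak, 38.1 kb on, had a signal of 368.7, with 190.8 and 177.2 in the replicates, and both sites were on the minus strand. After a further 54.9 kb came a double peak whose summits, 1.03 kb apart, had signals of 304.2 and 413.7 and both lay on the plus strand. The lower summit had 156.8 and 148.3 and the upper 228.3 and 185.9 in replicates 1 and 2. The weak peak between them had a signal of 33.09 and no motif. The 2 minus-strand sites thus pointed toward Ihh and Wnt6 and the 2 plus-strand sites into the Epha4 desert, facing away from each other across 54.9 kb.

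On the Pax3 side, 5 peaks lay within 82.44 kb, from 77896445 to 77978886, and 4 of them were above the 85th percentile of all peaks. The first, 381 kb upstream of the Epha4 start, had a signal of 378.5, with 202.3 and 179.7 in the replicates, and no match at the threshold used. A weaker peak of 71.1, with 32.87 and 36.45, held a minus-strand site. The exon of Gm28387, a non-coding gene, had 382.9, with 199.0 and 184.9 and a plus-strand site. Next to the start of that gene stood a peak of 312.2, with 156.2 and 153.7 and a minus-strand site. The last, 218 kb from the Pax3 start, had 419.1, with 213.5 and 205.4 and a plus-strand site toward Pax3. Minus and plus alternated here, unlike the minus-minus-plus-plus order beside Slc4a3.

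**Figure D3:**
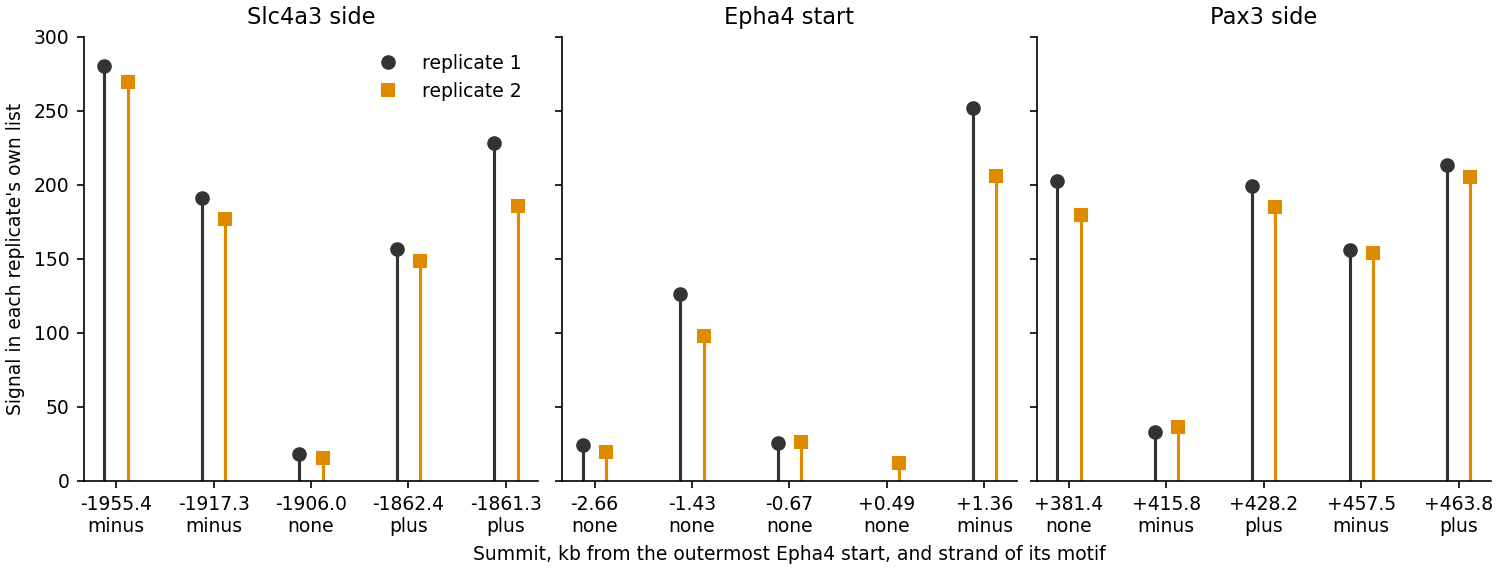
Signal in replicate 1's list (circles) and replicate 2's list (squares) at the 5 peaks on the Slc4a3 side, the 5 around the Epha4 start and the 5 on the Pax3 side. Each is labelled with its distance in kb from the outermost Epha4 start and the strand of its motif. Both replicates give 4 strong peaks and 1 weak one in each outer group, and replicate 1's list has none at +0.49 kb from the start.

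Between these groups, over 2.01 Mb that include Epha4, there were 38 peaks with a median signal of 37.0, and 3 of them passed 200. On the low-coordinate side of the longest peak-free gap 6 of 21 peaks held a motif, 4 plus and 2 minus. On the high-coordinate side 5 of 17 did, all 5 on the minus strand. At a per-position p of 1e-04 the strands were 9 plus and 4 minus below the gap, and 1 plus and 9 minus above it. The gap was chosen as the dividing line after the strands were seen, so the counts are a description. In replicate 1's own strongest peaks, with replicate 2 left out, 5 of 5 were plus below the gap and 3 of 3 minus above it, and in replicate 2's 3 of 6 were plus and 5 of 5 minus, a check added after the data were seen. The strong plus-strand peak inside the desert, at 75925926, had a signal of 403.9, with 205.6 and 196.5 in the replicates. It lay 1.59 Mb from the strong minus-strand peak at Epha4, which it faced.

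That peak at Epha4 was the second strongest of the stretch. Its summit, 1.36 kb upstream of the outermost Epha4 start and in an exon of the non-coding gene Gm28386, had a signal of 458.8, with 251.6 and 205.7 in replicates 1 and 2. Its minus-strand site, printed above, points along Epha4 transcription, into the gene and the desert behind it. Within 1 kb of the start lay 2 weak peaks. The one inside the gene, 674 bp from the outermost start, had a signal of 52.8, with 25.47 and 26.1 in the replicates. The one outside, 492 bp away, had 21.4, with 11.77 in replicate 2 and none in replicate 1's list.

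The strongest of the 6 peaks in the Epha4 body lay in an intron 1.43 kb from the start, with a signal of 225.6 and with 126.0 and 97.79 in the replicates. None of the 6 held a motif, so at this threshold 0% of them did, with an interval up to 39.0%. The 101 bases around that strongest summit are shown because a signal of this size stood there without a match. Capitals mark the best-scoring 20 bases, at 1.33 bits.
Epha4 intron summit (chr1:77513606-77513706, plus strand): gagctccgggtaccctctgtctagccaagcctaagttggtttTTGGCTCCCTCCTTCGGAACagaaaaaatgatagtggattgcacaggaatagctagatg
The other body peaks had signals of 28.4 to 72.0. The intron peak at 77407256 differed most between replicates of all in the stretch, with 22.0 in replicate 1 and 3.69 in replicate 2.

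The other listed genes had no peak within 1 kb of a start. At Wnt6 the nearest summits on either side of its outermost start were 4.66 kb upstream, with a signal of 32.82 and a minus-strand site, and 4.17 kb into the gene, with 73.56 and none. The upstream one had 18.65 and 14.5 in replicates 1 and 2, and the inner one 41.53 and 30.72. The strongest peak in its body, in an exon near the end of the gene, had 156.0, with 77.82 and 77.53 and a plus-strand site.

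Beyond Wnt6, the 3 strongest peaks before Ihh had signals of 435.3, 421.3 and 352.4. The first, between genes past the end of Wnt10a, another Wnt ligand gene, had 222.5 and 212.1 in the replicates and a minus-strand site. The next lay between genes past the end of Fev, which encodes a factor of serotonin neurons, 3.64 kb from its nearest start, with 219.0 and 203.7 and a plus-strand site. The last, between Wnt6 and Wnt10a, had 189.4 and 162.6 and a plus-strand site. Before Wnt6, the 3 strongest were an intergenic minus-strand peak of 271.0, an intergenic plus-strand peak of 190.8 and a peak of 129.0 without a motif at the Prkag3 start. Wnt10a itself had no promoter peak, its nearest summit being 2.5 kb from a start.

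Ihh held 1 peak, in an intron 2.66 kb from its outermost start, with a signal of 294.9 and with 149.6 and 144.7 in the replicates. Its site was on the plus strand, against the direction of Ihh transcription. On the other side of the start the nearest peak was 13.0 kb away, with a signal of 206.4, 112.3 and 93.23 in the replicates, and no motif. At Pax3 the signals were low. Its only body peak, in an intron, had a signal of 30.22, with 16.43 and 14.19. The nearest peak upstream, 3.26 kb from the start, had 39.77, with 21.68 and 12.89. The strongest 3 in the 100 kb beyond had 99.47, 57.84 and 51.48.

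Among the genes from Ihh to Slc4a3, the strongest peaks after that in the Slc4a3 exon were in an intron of Nhej1, a DNA end-joining factor, and in an intron of Ptprn, a protein of secretory vesicles. The Nhej1 peak had a signal of 425.2, with 226.3 and 199.8 in the replicates, and its minus-strand site lay in repeat-masked sequence. The Ptprn peak had 423.7, with 224.8 and 200 and a minus-strand site. At 17.3 kb upstream of Des, the muscle filament gene desmin, a plus-strand peak had 415.3, with 225.8 and 189.5. In an intron of Asic4, of the acid-sensing ion channel family, a minus-strand peak had 412.5, with 230.2 and 184.2.

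Of the 38 coding genes with a start in the stretch, 21 had a peak within 1 kb of any of their starts (55.3%, 39.7 to 69.9), against 43.4% of 21755 coding genes. The 31 peaks within 1 kb of any start had a median signal of 53.7. The highest at coding genes were 308.7 at Cryba2, a lens crystallin gene, 295.3 at Dnpep, an aminopeptidase gene, and 282.8 at Nhej1. At Cryba2 the replicates had 160.7 and 146.6, at Dnpep 159.1 and 135.1, and at Nhej1 145.1 and 137.4. Ttll4, a tubulin-modifying enzyme gene that crosses the edge of the stretch, had 239.3 at a start outside it. The gene is counted in the 21, but that peak is not among the 129. Cnppd1 and Retreg2 shared 1 peak of 165.5 between their starts, with 100.5 and 64.06 in the replicates, and Atg9a, an autophagy gene, shared 1 of 48.22 with Ankzf1.

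Prkag3, which encodes a subunit of the energy sensor AMPK, had 129.0 and Slc4a3 109.6. Tuba4a, an alpha-tubulin gene, had 69.97, the cytoskeletal adaptor gene Obsl1 69.75, the muscle kinase gene Speg 65.68, Ptprn 53.74 and Epha4 52.8. Abcb6, a membrane transporter gene, had 33.63, the sterol hydroxylase gene Cyp27a1 30.0, Gmppa 26.47, Asic4 24.53, the chaperone gene Dnajb2 21.24 and Cdk5r2, an activator of the neuronal kinase Cdk5, 20.32. Of these 21 genes, Cryba2, Nhej1 and Gmppa had a motif at their strongest promoter peak inside the stretch.

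The 5 longest stretches without a summit all lay past Slc4a3. The longest, 391.4 kb, ran between summits at 76630074 and 77021452, whose signals were 30.14 and 26.5. The next spanned 243 kb, from 76246759 to 76489808, with signals of 27.88 and 25.38 at its ends. A gap of 204.8 kb ended at the first peak of the Pax3-side group, with signals of 33.81 and 378.5 at its ends. The others of the 5 longest were 147.8 kb before Epha4, with 80.14 and 32.72, and 132 kb leading into Pax3, with 57.07 and 30.22. In all, 9 gaps passed 100 kb (7.03%, against 7.27% on the autosomes), and the median spacing was 11.0 kb, against 13.2 kb.

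Of 15 enhancer elements annotated in RefSeq within the stretch, 13 held no summit. The share over annotated elements elsewhere was not computed, so this count says nothing particular about the stretch. An overlapping pair upstream of Pax3 was counted as separate elements. The VISTA element mm1045, active in the embryonic midbrain among other tissues, held no summit, and its nearest peak was the upper summit of the double peak, 7.0 kb away on the low side. The limb element mm1036 had a weak minus-strand peak at each end, 1.2 and 1.22 kb away, with signals of 26.51 and 28.81. The limb elements mm1042 and mm1046 held none, with nearest peaks at 7.01 and 14.8 kb. Upstream of Epha4, the element active in rhombomeres lay 5.45 kb and that active in somites 8.63 kb from the strong peak at Epha4, with no summit inside either. At Pax3, the neural crest element upstream of the start lay 1.93 kb from the peak of 39.77. The heart element mm1017, past Wnt10a, and the forebrain element mm1372, near Resp18, held 2 summits each.

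Of the 129 peaks, 113 were also in the conservative list at an identical summit position (87.6%, against 86.9% of all peaks). That list held 125 peaks in the stretch, so a peak not matched may stand there with a shifted summit. Both replicate lists held a summit within 100 bp for 123. Of the other 6, 3 lacked one in replicate 1's list alone, 2 in replicate 2's alone and 1 in both. Across these peaks the signals had a Spearman rho of 0.927, against 0.948 over all 67101 such peaks, a description across peaks of 2 replicates that share 1 biosample record. The median log2 ratio of replicate 1 to replicate 2 was 0.28 ± 0.49 (SD, n = 123 peaks), against 0.30 ± 0.46 over all peaks. It stayed within 2-fold of the median over all peaks at 116 (94.3%, against 94.8%). At the 35 peaks with signals over 200 it deviated from that median by -0.28 to 0.15, and at the 52 under 50 by -1.06 to 2.27. Of the 10 strongest peaks by the optimal list's signal, 10 were in the top 10 of replicate 1 and 9 in that of replicate 2.

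**Figure D4:**
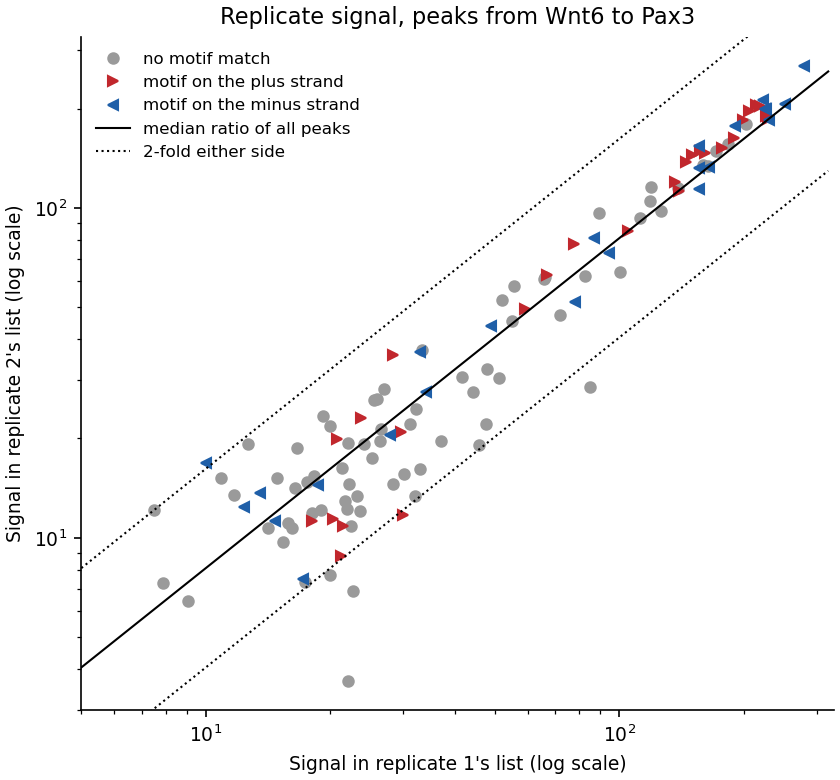
Signal in replicate 2's list against that in replicate 1's list, both on log scales, for the 123 peaks found in both, with the motif strand as arrowheads. The line is the median ratio over all peaks and the dotted lines lie 2-fold either side, and peaks outside them were weak apart from the one at Dnpep.

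The 3 peaks that differed most between replicates in each direction included 1 with a motif. Replicate 1 was higher in the Epha4 intron given above, by a log2 ratio 2.27 above the median, in the desert at 76630074, with 22.7 and 6.92 in replicates 1 and 2, and at a second Dnpep start, with 84.8 and 28.6. Replicate 2 was higher at 75783169 beside the limb element mm1036, with 9.99 in replicate 1 and 16.9 in replicate 2, on a minus-strand site. It was also higher at the Cdk5r2 promoter, with 7.49 and 12.2, and at 75336571 between Dnpep and Des, with 12.6 and 19.2.

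Epha4 belongs to a family of receptors and their membrane-bound ligands, the ephrins, which signal between touching cells. Of 22 genes of this family, 17 had a promoter peak (77.3%, 56.6 to 89.9), against 43.4% of coding genes. Of these, 10 had a higher signal than Epha4, at 52.8. That rank depends on the 1 kb limit, since the Epha4 peaks of 458.8 and 225.6 lay 1.36 and 1.43 kb from its outermost start. The highest signal, 526.8, was at Ephb1, a receptor that steers retinal axons, with 271.3 and 256.3 in the replicates. It was followed by the ligand Efnb2 at 362.1, with 191.8 and 171.9, and by the receptors Ephb3 at 336.5, Ephb6 at 304.0 and Epha6 at 277.9. The other 11 ranged from 28.86 at Ephb2 to 168.4 at Epha1. The receptors Epha2 and Epha8 and the ligands Efna3, Efna4 and Efnb1 had none listed, the nearest summit to Efnb1 lying 1.07 kb from a start. With 6 peaks in its body, or 4.06 per 100 kb, Epha4 lay between Ephb2, with 17 peaks and 9.02 per 100 kb, and Epha5, with 1 peak and 0.276 per 100 kb. Those are not the ends of the family, which ran from 0, as at Epha1, to 22.1 per 100 kb at Efna3.

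**Figure D5:**
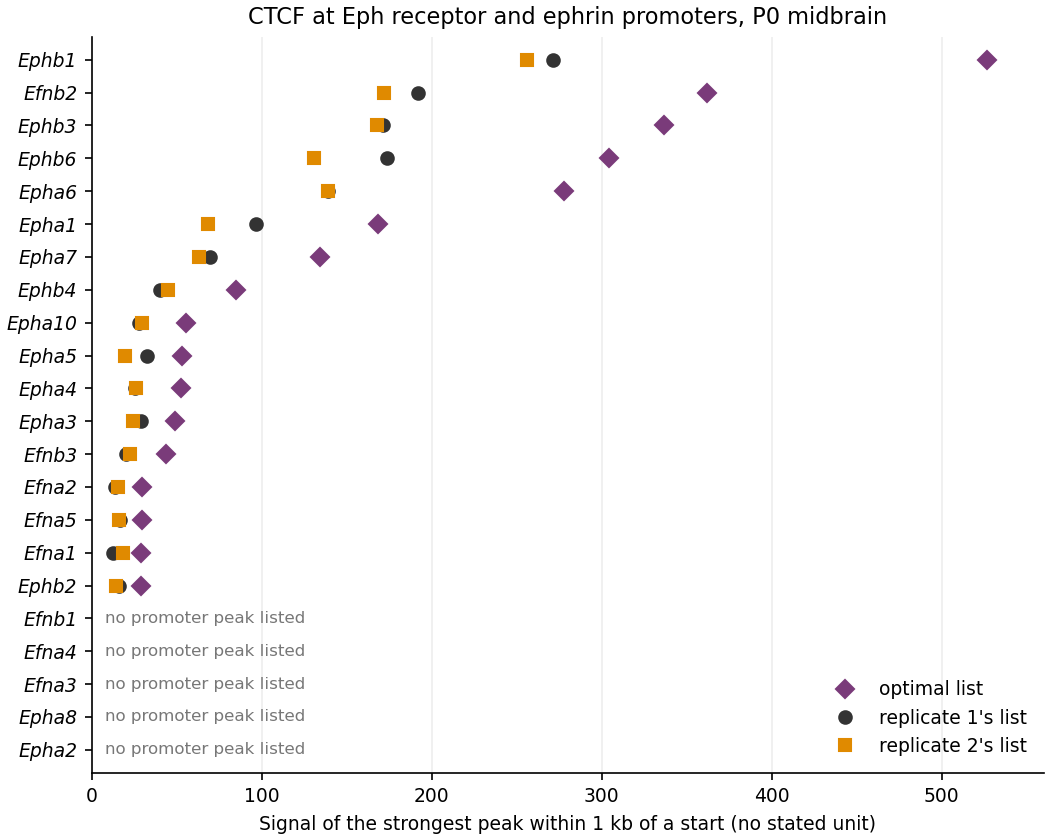
Signal of the strongest peak within 1 kb of a start for the 22 Eph receptor and ephrin genes, in the optimal list (diamonds) and in each replicate's list (circles and squares), which have no shared scale. Epha4 at 52.8 lies among the weaker of the 17 genes with a peak, and 5 genes had none listed. The peak of 458.8 at Epha4, 1.36 kb from its outermost start, is outside the 1 kb limit and not drawn.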

How the data were processed

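The authors deposited narrowPeak lists on mm10, per the labels and the deposited notes, for each replicate, for both replicates together, and thresholded by irreproducible discovery rate as optimal and conservative. Column 7, the signal, was used as deposited. The sources used here do not give the peak caller, aligner, depth, threshold or any normalization between lists. Of 68603 optimal peaks, 13 on scaffolds were left out. Summits were placed in the stretch and its intervals with GENCODE vM21 genes, in Python 3.11.15 with numpy 2.4.6, pandas 2.3.3, scipy 1.17.1 and matplotlib 3.10.9. The weight matrix was learned from 2000 peaks, and sites were scanned on GRCm38.p6, after a test on simulated sites. Locations were assigned in the order promoter, exon, intron, intergenic. Replicate summits were matched within 100 bp. With 1 group no test was made, and all counts are descriptions. The members and lists were chosen with earlier results of these data known. Named peaks were, by rule, those nearest each side of each listed gene's outermost start, the strongest in its body, the 3 strongest of each interval, the 10 strongest of the stretch, those bounding the 5 longest gaps and the 3 most discordant each way, and named genes those with a promoter peak and the Eph and ephrin genes. Other peaks and genes were named after their values were seen.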

Additional observations from a re-analysis of the deposited data

How the results depend on the processing

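Keeping the stronger 50% of the optimal list cut the peaks of the stretch to 55, with 3 before Wnt6, 1 in Wnt6, 10 from Wnt6 to Ihh, 31 from Ihh to Epha4 (24 up to Slc4a3 and 7 past it), 1 in Epha4, 7 from Epha4 to Pax3, 0 in Pax3 and 1 after it. It left 60% of peaks with a motif. Over all peaks the share was higher, at 87.5% in the strongest 10% and 64.2% in the rest of the stronger 50%. Promoter peaks remained at 8 genes of the stretch (21.1%) and at 8 Eph and ephrin genes (36.4%), against 23.1% of coding genes. Beside the longest gap the stronger 50% held 1 plus-strand site of 1 on the low side and 3 minus-strand sites of 3 on the high side. The motif share was 65.9% at a per-position p of 1e-04, against 75.3% of all peaks, and 17.8% at 1e-06, against 25.9%. The conservative list gave 2 peaks in Ihh. Promoters within 5 kb held a peak at 78.9% of the genes of the stretch, against 61.3% of coding genes, and those within 500 bp at 44.7%, against 35.8%. No other count for the stretch moved beyond 1.5 times under the conservative list, the other promoter distances or the other summit matching distances. Taking replicate 2's strongest peaks alone, or replicate 1's, gave 130 to 135 peaks in the stretch, 1 to 2 in Ihh, 39.3% to 40% with a motif and 19 to 23 genes with a promoter peak. From replicate 2's peaks those genes were 50% of the genes of the stretch, against 44% of coding genes. From replicate 1's they were 60.5%, against 44.1%. Motif shares over all of each replicate's strongest peaks were not computed. Leaving a replicate out also dropped the threshold on irreproducible discovery rate and the signal of the joint call. No paired analysis was possible because there is 1 group.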

Other observations

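Motif matches without a peak were about as common in the stretch as on the whole chromosome. At a per-position p of 1e-05 the stretch held 170 matches, of which 56 had an optimal peak (32.9%, 26.3 to 40.3), against 31.5% of 7709 on chromosome 1. At 1e-06, 24 of 37 had one (64.9%, 48.8 to 78.2), against 73.0% of 1525. The bodies of Epha4 and Pax3 were nearly empty of matches, with 1 in the 147.9 kb of Epha4 and 0 in the 95.87 kb of Pax3, while the 160 kb from Wnt6 to Ihh held 20, of which 11 had a peak.

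Strong peaks without a motif stood among the genes before Slc4a3, at Epha4 and on the Pax3 side, where the first of the group had 378.5. Of the 35 peaks with signals over 200, 25 held a motif, and the share over all peaks with such signals was not computed. The others included one between Gmppa and Asic4 at 336.6, one in an Obsl1 intron at 321.0 and one in an exon of Chpf, a chondroitin synthesis gene, at 300.9, chosen after their values were seen.

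Outside the stretch the nearest peaks were 10.2 kb beyond its low edge, with a signal of 239.3, and 41.1 kb beyond its high edge, with 138.5. The first and last peaks inside had 30.0 and 31.73.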
